A study of Rattus norvegicus with 36 samples.

Results

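A set of 37 genes was brighter over postnatal days 14 and 21 than at days 0 and 45, in extraocular muscle (EOM), in leg muscle or in both. They were chosen by their log2 intensities on a microarray, floored at an intensity of 100. A gene was a member where the mean of the 6 arrays of days 14 and 21, here called the window, was at least 9 and lay at least 0.7 above the day 0 mean and above the day 45 mean of the same muscle. Where several probe sets carried the same gene symbol, the brightest over the 36 arrays stood for the gene. Of 4736 genes with a probe set of a single gene symbol, 22 met this in EOM and 18 in leg, and 3 of these (Alox15, Cpa1 and Mbp) met it in both. The scaling moved these counts, to 34 in EOM and 46 in leg (71 genes) with arrays scaled to the same median and to 32 and 31 (59 genes) after quantile normalization, and a threshold of 1.0 left 16 genes. All 37 passed the filter on dim probe sets and were tested.

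Total RNA of rat EOM, the muscles that move the eye, was measured at postnatal days 0, 7, 14, 21, 28 and 45, beside a leg sample of gastrocnemius and soleus at the same ages. Affymetrix rat arrays were used, with 3 arrays for each muscle and age, so 36 arrays form 12 groups. Each group is an untreated muscle at its age, and strain, sex and the number of animals behind an array are not given in the sources used here. Nothing in the labels ties the 3 arrays of a group to separate animals, so a p-value reflects only how far these arrays scatter, which may be technical.

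Skeletal muscle matures after birth in both places. Newborn isoforms of contractile proteins give way to adult ones, motor axons are sorted and myelinated, basement membranes and tendon attachments are built, and fuel use shifts at weaning. EOM is known for keeping some immature features into adult life. A gene that is high only in the middle of this period shows neither a steady gain nor a steady loss between the youngest and the oldest age.

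The median intensity of an array lay between 418.7 and 652.2. Within a group, pairs of arrays had correlations of 0.877 to 0.953 over the probe sets. The 3 arrays of EOM at day 45 correlated least with their own group, at mean values of 0.905, 0.896 and 0.885. Des, the muscle intermediate filament, lay between 12.5 and 14.02 (log2 group means) in every group, while the probe set of Ckm, the muscle creatine kinase, was at the floor at days 21 and 28 in both muscles. Of the 1332 member values, 17 lay at the floor, in 10 members. In whole muscle, fewer cells of a type and less RNA per cell cannot be told apart.

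The size of a transient is given here as the window mean minus the higher of the day 0 and day 45 means, in log2 units. Sizes ranged from 0.71 to 1.85 in EOM with a median of 0.99, and from 0.74 to 2.56 in leg with a median of 0.92. In EOM the highest of the 6 age means fell on day 7 for 3 members, day 14 for 5, day 21 for 8 and day 28 for 6. In leg it fell on day 7 for 1 member, day 14 for 12 and day 21 for 5. At day 28 the mean was above both end means in 21 of 22 EOM members and 16 of 18 leg members, and at day 7 in 15 of 22 and 16 of 18.

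Single arrays often decided membership. For 17 of the 22 EOM members and 10 of the 18 leg members, there was at least 1 single array whose omission ended membership. No single omission kept fewer than 14 of the 22 in EOM or 13 of the 18 in leg. All 6 window arrays lay above all 6 arrays of days 0 and 45 for 7 EOM members (Alox15, Col15a1, Mybph, Slc6a9, Hsd17b8, Thbs4 and Rpl3) and for 7 leg members (Sncg, Igfbp5, Alox15, Nfix, Cpa1, Pxmp2 and Neu2). Over all 4736 genes this separation held for 0.19% in EOM and 0.38% in leg, and because the rule used the same arrays nothing is read from the contrast.

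**Figure D1:**
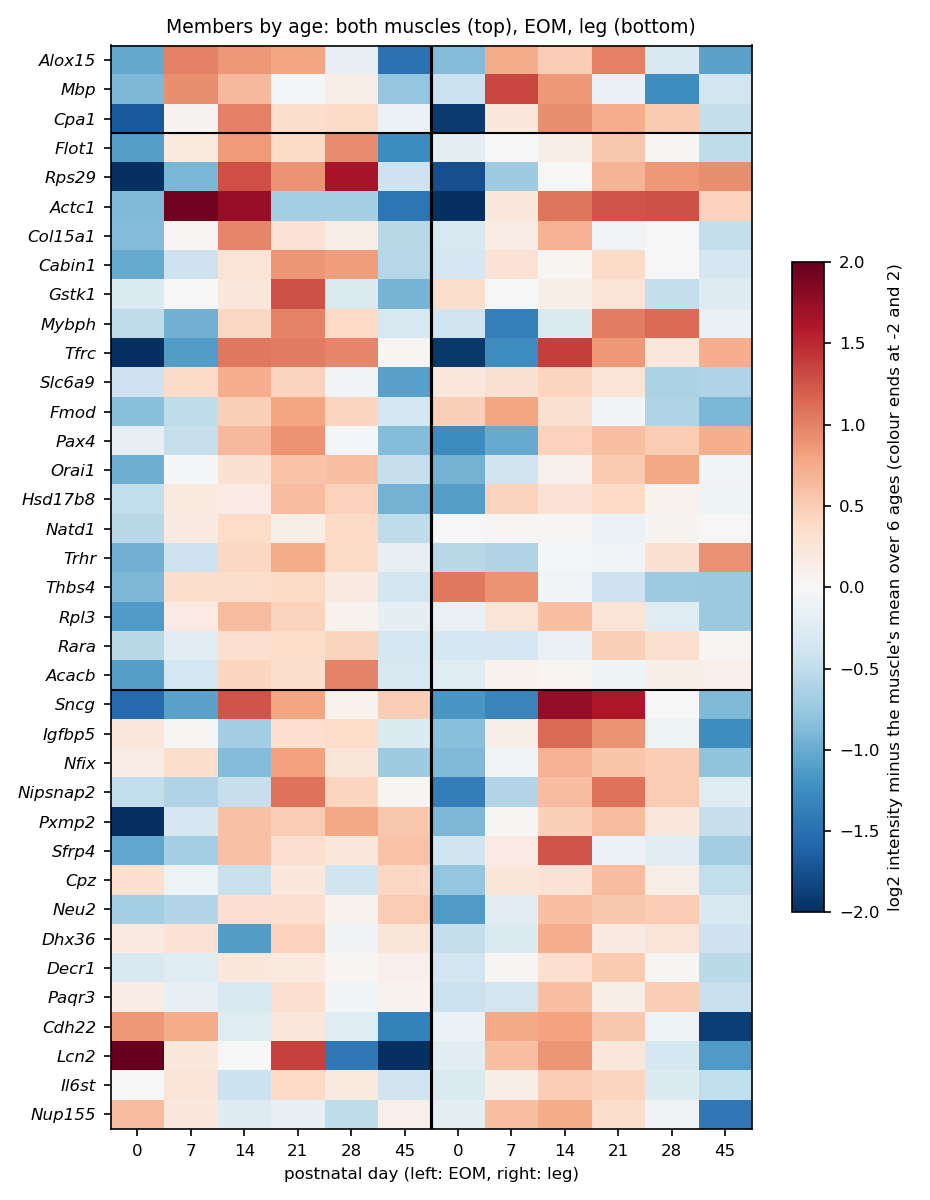
Mean log2 intensity of each member at each postnatal day, minus that muscle's own mean over the 6 ages, in EOM (left) and leg (right). Colour runs from blue (below the mean) to red (above) and ends at -2 and 2, and each cell is a mean of 3 arrays. The 3 genes of both muscles are on top, the other EOM members below them and the other leg members at the bottom.

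**Figure D2:**
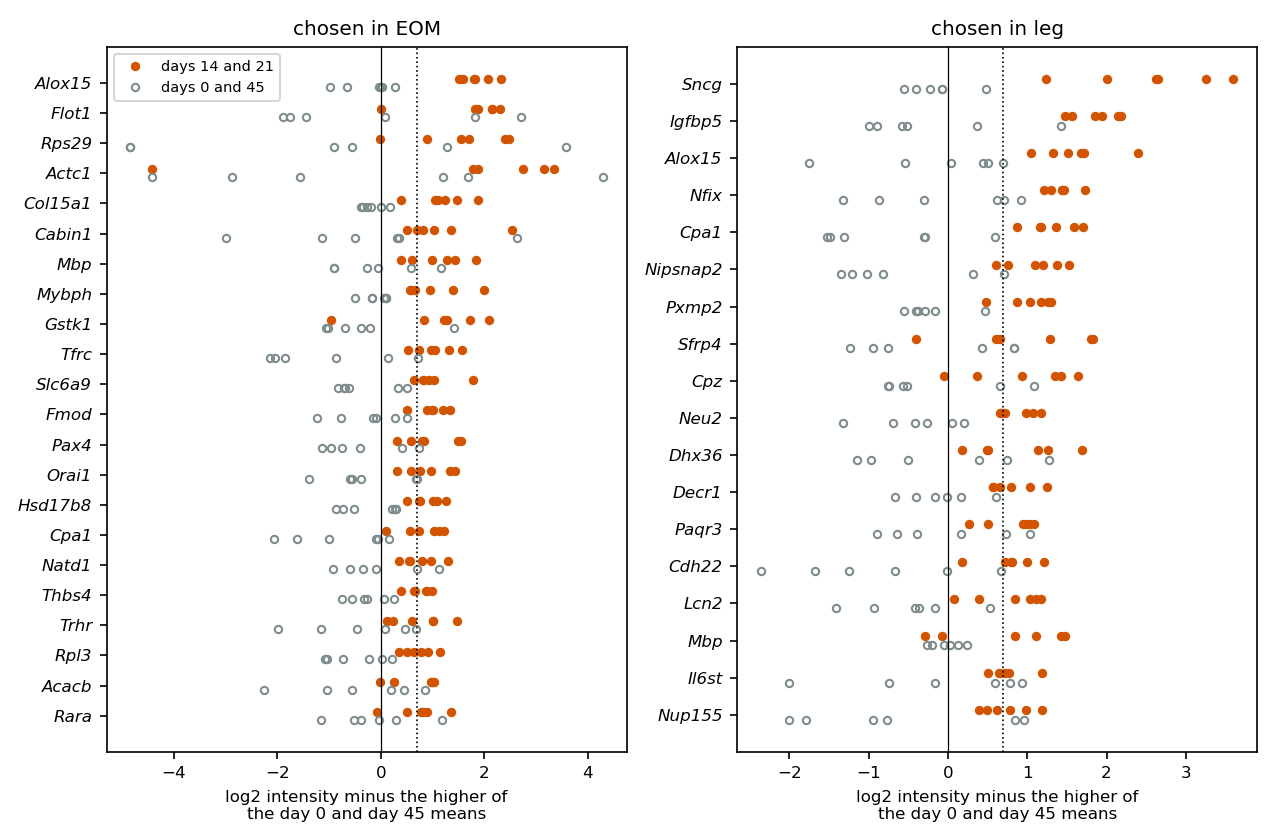
Single arrays of each member in the muscle that chose it, as log2 intensity minus the higher of the day 0 and day 45 means. Filled points are the 6 arrays of days 14 and 21, open points the 6 arrays of days 0 and 45, and the dotted line marks the rule's 0.7. Open and filled points are apart in 7 members of each muscle and overlap in the others, most widely in Actc1 and Rps29.

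In the plot of means by age, Alox15 and Sncg form a block of high values around the window. In the plot of single arrays, Actc1, Rps29, Flot1 and Cabin1 have an array of day 45 above their whole window and at least 1 other no higher than its lowest array.

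To show the DNA before the start of members that recur below, 250 bases of promoter are printed for Cpa1, a member in both muscles, Col15a1, an EOM member that passed the same tests in leg, and Sncg, the member of largest size. Sequences are RefSeq's on build GRCr8, 5′ to 3′ on the gene's strand, in which 30 of the 37 members had an entry. Capitals mark the motifs searched on both strands, which were the TATA box TATAAA, the box CCAAT, the E-box CANNTG, the nuclear receptor half-site AGGTCA and the nuclear factor I palindrome.
Cpa1 promoter, chr4:60224551-60224800, plus strand: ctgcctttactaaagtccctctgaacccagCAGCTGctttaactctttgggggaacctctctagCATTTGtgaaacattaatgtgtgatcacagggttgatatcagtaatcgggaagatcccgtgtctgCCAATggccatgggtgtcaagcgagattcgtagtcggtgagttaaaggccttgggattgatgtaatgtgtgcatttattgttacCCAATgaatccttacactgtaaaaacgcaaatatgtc
Col15a1 promoter, chr5:66297296-66297545, plus strand: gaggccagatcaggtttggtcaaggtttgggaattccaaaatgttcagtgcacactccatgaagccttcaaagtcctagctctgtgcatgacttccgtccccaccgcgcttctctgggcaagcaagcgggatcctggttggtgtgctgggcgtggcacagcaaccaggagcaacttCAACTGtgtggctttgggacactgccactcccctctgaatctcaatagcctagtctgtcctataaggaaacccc
Sncg promoter, chr16:9711337-9711586, minus strand: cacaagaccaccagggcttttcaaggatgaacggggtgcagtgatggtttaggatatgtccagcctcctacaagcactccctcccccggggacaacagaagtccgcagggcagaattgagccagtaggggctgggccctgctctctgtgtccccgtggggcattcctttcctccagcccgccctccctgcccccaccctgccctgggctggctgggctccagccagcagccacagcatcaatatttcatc

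The Cpa1 stretch held 2 E-boxes and 2 CCAAT boxes, the Col15a1 stretch 1 E-box, and the Sncg stretch none of the motifs. Over the 30 member promoters, CANNTG was found in 33.3% against 65.5% of all 33469 promoters of the same length. CCAAT was found in 30% of member promoters against 34% of all, TATAAA in 6.67% against 12.9%, and AGGTCA in 6.67% against 14.1%. The palindrome was in 0 of 30 member promoters and in 0.0359% of all. These are descriptions of the letters in these stretches, with no test.

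Alox15, an arachidonate lipoxygenase that adds oxygen to polyunsaturated fatty acids, had the largest size in EOM. Its EOM arrays read 10.91, 10.96 and 10.98 at day 0, then 12.76, 12.75 and 13.02 at day 14, 12.54, 12.46 and 13.28 at day 21, and 11.22, 9.97 and 10.3 at day 45. In leg they read 10.28, 10.74 and 9.7 at day 0, 11.29, 11.56 and 11.95 at day 14, 11.75, 11.92 and 12.64 at day 21, and 10.68, 8.49 and 10.94 at day 45. All window arrays were above the arrays of both end ages in each muscle. In EOM the highest mean was already reached at day 7 (12.98 ± 0.06, SD, n = 3), when the leg mean was 11.84 ± 0.74.

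The leg arrays played no part in the choice of Alox15 in EOM, and the EOM arrays none in its choice in leg. Each set did choose it in its own muscle, so singling it out as a member in both was not independent of these tests. In leg its window mean was higher than at day 0 by 1.61 ± 0.36 (log2 difference ± standard error of the fit, adjusted p = 0.00124) and higher than at day 45 by 1.82 ± 0.36 (adjusted p = 0.0009). In EOM it was higher by 1.85 ± 0.36 (adjusted p = 0.000216) and 2.31 ± 0.36 (adjusted p = 0.0002). A further probe set of the gene also met the rule, with sizes of 2.42 in EOM and 3.9 in leg. The leukocyte list, whose cells can hold lipoxygenases, had 24 measured genes and a summed intensity in EOM of 26476 to 30824 at day 0, 29815 to 38048 at day 14, 31372 to 94141 at day 21 and 40328 to 48544 at day 45. In leg the same sum was 25335 to 32503 at day 0, 24901 to 30892 at day 14, 22117 to 37562 at day 21 and 33837 to 50202 at day 45, and its part in the Alox15 values was not tested. Of 21 tested genes of the list, 6 were higher and 0 lower in the EOM window than at day 0 (among them Cd74, the invariant chain of MHC class II, 2.39 ± 0.45, adjusted p = 0.000141) and 0 differed from day 45. In leg 0 were higher and 4 lower than at day 0, and 1 was higher and 2 lower than at day 45. Over all 6672 tested probe sets, 10.4% were higher and 17.8% lower in the EOM window than at day 0, and 2.44% higher and 2.1% lower than at day 45. In leg these shares were 8.59% and 16.0% against day 0, and 7.37% and 7.6% against day 45.

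Cpa1, carboxypeptidase A1, is known as a digestive enzyme of the pancreas. Its EOM arrays read 8.22, 8.66 and 9.28 at day 0, 11.31, 11.5 and 11.41 at day 14, 10.37, 10.85 and 11.02 at day 21, and 10.22, 10.18 and 10.44 at day 45. The leg arrays read 8.54, 8.72 and 8.5 at day 0, 11.2, 11.73 and 11.39 at day 14, 10.9, 11.19 and 11.62 at day 21, and 9.73, 9.74 and 10.62 at day 45. The groups did not overlap in leg, and in EOM the lowest window array (10.37) lay below the highest day 45 array (10.44). In both muscles every day 45 array was above every day 0 array.

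In leg, tested for its choice in EOM, the Cpa1 window was higher by 2.75 ± 0.24 against day 0 (adjusted p = 2.62e-10) and by 1.31 ± 0.24 against day 45 (adjusted p = 0.000281). In EOM, tested for its choice in leg, the differences were 2.36 ± 0.24 (adjusted p = 4.47e-09) and 0.8 ± 0.24 (adjusted p = 0.0458). The EOM call against day 45 was close to the threshold and was lost in 20 of 43 alternatives, 18 of which left out a single array, with differences of 0.73 to 0.82 and adjusted p of 0.0502 to 0.191. Cpa3, the carboxypeptidase of mast cells, had EOM means of 10.68 at day 0, 10.54 at day 14, 10.18 at day 21 and 10.16 at day 45. The 8 measured genes of the mast cell list summed to 10124 to 11956 at day 0, 7358 to 8959 over days 14 and 21, and 7503 to 9245 at day 45 in EOM. In leg they summed to 12551 to 16884 at day 0, 5599 to 7630 over days 14 and 21, and 5571 to 8821 at day 45. Of the 5 tested genes of that list, 0 were higher and 1 lower in the EOM window than at day 0, 0 were higher and 4 lower in leg, and 0 differed from day 45 in either muscle. Of all tested probe sets, 10.4% were higher and 17.8% lower than at day 0 in EOM, and 8.59% and 16.0% in leg. The part of mast cells in the Cpa1 values was not tested.

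Mbp, the myelin basic protein, was brighter in EOM than in leg at every age. Its EOM means were 10.74, 12.57, 12.29, 11.62, 11.77 and 10.87 at days 0, 7, 14, 21, 28 and 45, and its leg means 9.07, 10.83, 10.36, 9.36, 8.26 and 9.11. The highest mean fell on day 7 in both muscles, before the window. Groups overlapped: in leg, 2 window arrays (9.04 and 8.82) lay below the highest array of days 0 and 45 (9.35), and in EOM the day 45 arrays spread from 9.96 to 12.04.

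In EOM, tested for its choice in leg, Mbp was higher in the window than at day 0 by 1.22 ± 0.42 (adjusted p = 0.0303), and against day 45 the difference was 1.09 ± 0.42 (adjusted p = 0.14). The call against day 0 was lost in 5 of 43 alternatives, without replicate 2 or 3 of EOM day 0, without replicate 3 of EOM day 14 or of EOM day 21, or with no filter on dim probe sets (0.83 to 1.25). In leg neither contrast passed the test. At the ages the rule did not use, Mbp was higher in EOM than in leg by 1.74 ± 0.49 at day 7 (adjusted p = 0.0324) and by 3.51 ± 0.49 at day 28 (adjusted p = 9.25e-06). The day 7 call was lost in 7 of 43 alternatives, 4 of which left out an array of day 7 (replicates 1 and 3 of EOM, replicates 1 and 2 of leg), with values of 1.37 to 1.82. In leg Mbp was lower at day 28 than at day 7 by 2.57 on the log2 scale, a difference of -2.57 ± 0.49 (adjusted p = 0.000238).

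The list of Schwann cell and axon genes holds Mbp. Of its 15 other tested genes, 1 was higher in the EOM window than at day 0 (Ngfr, a neurotrophin receptor, 1.13 ± 0.35, adjusted p = 0.0133), 3 were lower (Gap43, Mag and Sox10) and 0 differed from day 45. In leg 0 were higher and 2 lower than at day 0 (Cnp and Gap43), and 1 was higher than at day 45 (Pmp22). Among all tested probe sets, 10.4% were higher and 17.8% lower than at day 0 in EOM, and 8.59% and 16.0% in leg. Higher than at day 45 in leg were 7.37%. Mag and Sox10, both genes of myelinating glia, had EOM differences from day 0 of -0.53 ± 0.2 (adjusted p = 0.045) and -2.85 ± 0.37 (adjusted p = 4.52e-07). Sox10 had leg means between 6.64, the floor, and 7.08. The summed intensity of the list in EOM ran from 38497 to 41259 at day 0, 38942 to 54478 over the window and 37105 to 54557 at day 45. In leg it ran from 30291 to 35291 at day 0, 20352 to 36654 over the window and 20285 to 24470 at day 45, and the part of Schwann cell content in the Mbp values was not tested.

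**Figure D3:**
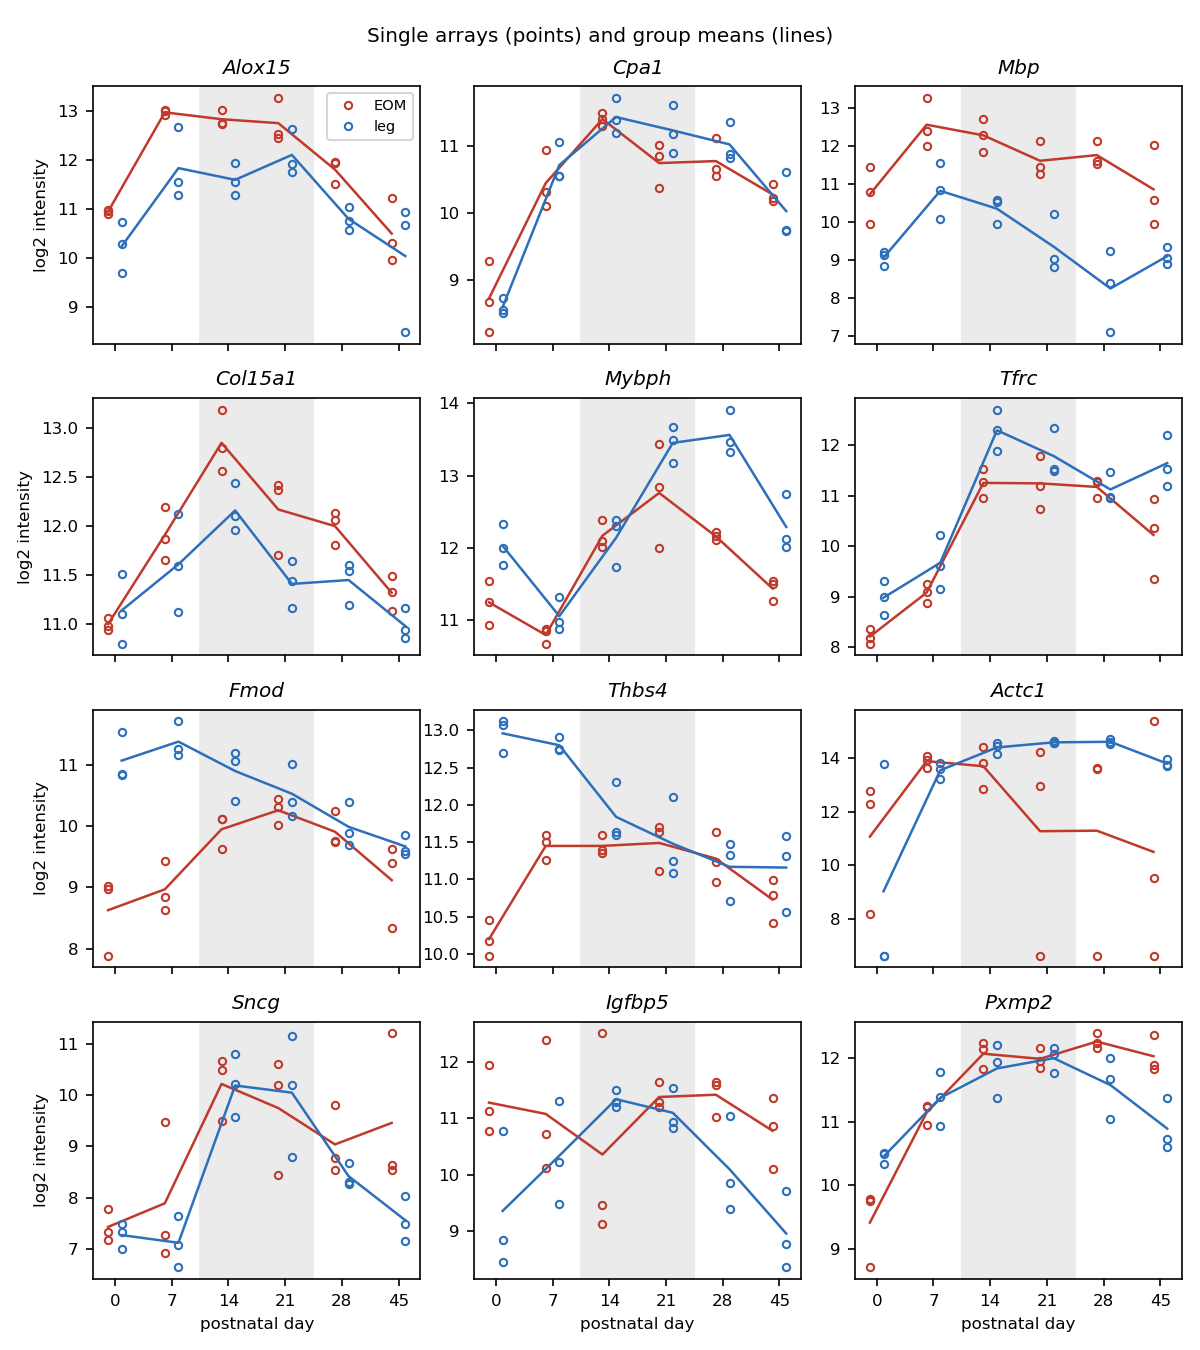
Log2 intensity of 12 members on single arrays (points) with group means (lines) against postnatal day, EOM in red and leg in blue, with the window of days 14 and 21 shaded. Alox15, Cpa1, Mbp, Col15a1, Mybph, Tfrc, Actc1 and Sncg have window means above both end means in each muscle. Actc1 has EOM arrays at the floor of 6.64 at days 21, 28 and 45.

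Among contractile proteins, Mybph, a myosin binding protein of the thick filament, was a member in EOM. Its EOM arrays read 11.26, 10.94 and 11.54 at day 0, 12.38, 12.1 and 12.02 at day 14, 12.84, 13.44 and 12 at day 21, and 11.5, 11.27 and 11.54 at day 45. The window arrays were all above the others, and a further probe set of the gene met the rule with a size of 1.41. In leg the window was higher than day 0 by 0.76 ± 0.22 (adjusted p = 0.011), a call lost without leg day 0 replicate 1 (0.63), and the difference from day 45 was 0.5 ± 0.22 (adjusted p = 0.126).

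Mybph was late in both muscles. Day 28 was higher than day 7 by 1.36 ± 0.26 in EOM (adjusted p = 0.00023) and by 2.5 ± 0.26 in leg (adjusted p = 1.68e-08). The difference between these changes was -1.14 ± 0.36 (adjusted p = 0.112), so they were not shown to differ. In leg it was higher at day 21 than at day 14 by 1.3 ± 0.26 (adjusted p = 0.0116), lost in 4 of 43 alternatives (without leg day 14 replicate 3, leg day 21 replicate 1 or leg day 21 replicate 2, and in a fit of these groups alone, 1.11 to 1.3). At day 28 it was lower in EOM than in leg, with means of 12.16 ± 0.06 in EOM and 13.56 ± 0.3 in leg (SD, n = 3; fitted difference -1.4 ± 0.26, adjusted p = 0.000296).

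Actc1, the cardiac alpha actin that immature skeletal muscle also makes, had the widest spread of all members. Its EOM arrays read 12.27, 8.2 and 12.75 at day 0, 14.41, 12.85 and 13.82 at day 14, 14.22, 6.64 and 12.95 at day 21, and 6.64, 9.51 and 15.36 at day 45. The 6 window arrays spanned 7.76 log2 units, and 1 array was at the floor at each of days 21, 28 and 45. Without EOM day 0 replicate 2 the size became -0.02. Its probe set carries the suffix of one that can share targets with related genes, so its level is uncertain where near-identical actins are expressed. The probe sets of Igfbp5, Trhr and Paqr3 carry the same suffix. In leg, where Actc1 lay just outside the rule with a size of 0.692, the window was higher than day 0 by 5.46 ± 1.6 (adjusted p = 0.0119). There 2 of the 3 day 0 arrays were at the floor, and without either of them the difference was 4.27 and not past the test.

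Flot1, a scaffold protein of membrane microdomains, and Cabin1, an inhibitor of calcineurin, shared a high replicate 3 at day 45. In EOM, Flot1 read 9.05, 11.02 and 12.76 at day 0, 12.82, 12.76 and 13.09 at day 14, 13.24, 10.95 and 13.09 at day 21, and 9.19, 9.5 and 13.65 at day 45. Cabin1 had a window of 10.13 to 12.16 and read 9.98, 6.64 and 12.26 at day 45, and without the array at the floor its size was -0.34. In both genes replicate 3 of EOM day 45 was the brightest of the 12 used. Neither passed a window contrast in leg, and a further probe set had a size of -0.5 for Cabin1 and of 0, to 2 decimals, for Flot1.

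Orai1, the pore of the calcium channel that opens when stores empty, had EOM arrays of 11.38, 11.59 and 11.22 at day 14 and 12.06, 11.97 and 10.94 at day 21. At day 0 they were 10.07, 10.25 and 10.03, and at day 45 they were 11.3, 9.24 and 11.33, so the window overlapped with day 45. In leg the window was higher than day 0 by 1.24 ± 0.37 (adjusted p = 0.0126), lost without leg day 0 replicate 3 (1.13). In leg day 28 was higher than day 7 by 1.18 ± 0.42 (adjusted p = 0.0436), lost in 8 of 43 alternatives, among them the omission of replicate 1 or 3 of day 7 or of any array of day 28 (0.82 to 1.34 over all 8).

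Matrix genes were members in EOM. Col15a1, a collagen of the basement membrane around muscle fibres and capillaries, read 11.06, 10.98 and 10.94 in EOM at day 0, 12.8, 13.19 and 12.56 at day 14, 12.37, 12.42 and 11.71 at day 21, and 11.33, 11.49 and 11.13 at day 45. In leg it read 11.1, 11.51 and 10.8 at day 0, 12.1, 12.44 and 11.96 at day 14, 11.16, 11.44 and 11.64 at day 21, and 10.94, 10.86 and 11.16 at day 45. The EOM groups did not overlap, and in leg 4 of the 6 window arrays were above all end arrays. In leg the window was higher by 0.65 ± 0.2 against day 0 (adjusted p = 0.0154) and by 0.8 ± 0.2 against day 45 (adjusted p = 0.00632). The call against day 0 was lost without leg day 0 replicate 1 or replicate 3 (0.49 to 0.63).

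Fmod, a small proteoglycan that binds collagen fibrils, and Thbs4, a thrombospondin of tendon and its junction with muscle, had differing courses in the muscles. In EOM, Fmod means were 8.63, 8.97, 9.95, 10.26, 9.91 and 9.12 over the ages, and in leg 11.07, 11.38, 10.9, 10.53, 9.99 and 9.67. Thbs4 means were 10.2, 11.45, 11.45, 11.49, 11.28 and 10.73 in EOM, and 12.96, 12.8, 11.84, 11.48, 11.17 and 11.16 in leg. The transient of EOM thus lay against a course in leg whose highest mean was at day 7 for Fmod and at day 0 for Thbs4.

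Single arrays showed the gap at day 7, when EOM read 9.43, 8.63 and 8.84 for Fmod against 11.71, 11.26 and 11.16 in leg, and 11.26, 11.5 and 11.6 for Thbs4 against 12.91, 12.74 and 12.75 in leg. EOM was lower than leg at day 7 by 2.41 for Fmod (difference -2.41 ± 0.33, adjusted p = 8.17e-06) and by 1.34 for Thbs4 (-1.34 ± 0.27, adjusted p = 0.00145). By day 28 the arrays overlapped, at 9.76, 10.24 and 9.74 in EOM and 9.89, 10.39 and 9.69 in leg for Fmod.

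Between days 7 and 28 Fmod was higher at day 28 in EOM by 0.95 ± 0.33 (adjusted p = 0.0424) and lower at day 28 in leg (-1.39 ± 0.33, adjusted p = 0.00227). The EOM call was lost in 7 of 43 alternatives, with any array of day 28 or replicate 2 or 3 of day 7 left out among them (0.78 to 1.03). Thbs4 was lower at day 28 in leg (-1.63 ± 0.27, adjusted p = 3.36e-05), and the leg window was lower than day 0 (-1.3 ± 0.23, adjusted p = 7.79e-05). For Fmod the leg window was higher than day 45 by 1.05 ± 0.28 (adjusted p = 0.0119), lost without leg day 45 replicate 1 or 2 (0.99 to 1.02). The other Fmod probe set had a size of 0.03 in EOM.

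The extracellular matrix list holds Fmod and Thbs4 but not Col15a1. Of its 26 other tested genes, 2 were higher and 9 lower in the EOM window than at day 0, and 6 were higher and 0 lower than at day 45. In leg neither Fmod nor Thbs4 was chosen, so all 28 count. There 1 was higher and 12 lower than at day 0, and 11 higher and 1 lower than at day 45. The shares of all tested probe sets in EOM were 10.4% higher and 17.8% lower against day 0, and 2.44% and 2.1% against day 45. In leg they were 8.59% and 16.0%, and 7.37% and 7.6%. Postn, a matrix protein of growing connective tissue, was lower in the EOM window than at day 0 (-0.8 ± 0.19, adjusted p = 0.00128) and higher than at day 45 (1.14 ± 0.19, adjusted p = 0.000282). Over these genes, the medians of the differences from days 0 and 45 were -0.15 and 0.25 in EOM and -0.6 and 0.36 in leg, beside -0.17 and -0.1 in EOM and -0.14 and -0.14 in leg over all tested probe sets.

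Secreted factors were members in leg. Igfbp5, which binds insulin-like growth factors, read 8.46, 8.84 and 10.78 at day 0, 11.5, 11.21 and 11.3 at day 14, 10.93, 10.83 and 11.54 at day 21, and 9.72, 8.78 and 8.36 at day 45 in leg. The window lay above every end array, the highest of which was day 0 replicate 3. In EOM, means were 11.28, 11.08, 10.36, 11.38, 11.42 and 10.78 over the ages, and neither window contrast passed. In EOM at day 14, replicates 1 and 2 read 9.12 and 9.46 and replicate 3 read 12.51. A further probe set of Igfbp5 had a size of 0.51 in leg and another lay at the floor.

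The list of myogenic regulators and the insulin-like growth factor axis holds Igfbp5. Of its 16 other tested genes, 1 was higher and 5 lower in the leg window than at day 0. Against day 45, 5 were higher and 0 lower. The shares of all tested probe sets were 8.59% higher and 16.0% lower against day 0, and 7.37% and 7.6% against day 45. Myog, a master regulator of fibre formation, had a leg window lower than day 0 (-0.79 ± 0.27, adjusted p = 0.0301) and higher than day 45 (1.06 ± 0.27, adjusted p = 0.00741).

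Sfrp4, a secreted inhibitor of Wnt signals, read 10.17, 10.19 and 9.65 in leg at day 14 and 8.96, 9.01 and 7.96 at day 21, so all 3 arrays of day 14 were above those of day 21. In EOM its window was higher than day 0 by 1.5 ± 0.5 (adjusted p = 0.0243), where 2 of the 3 day 0 arrays were at the floor. That call was lost in 6 of 43 alternatives, among them the omission of EOM day 0 replicate 2 or 3, of EOM day 14 replicate 1 or of EOM day 21 replicate 1 (0.83 to 1.5 over all 6). Cpz, a carboxypeptidase with a Frizzled-like domain, had a leg window of 8.88 to 10.57 that overlapped with end arrays of 8.17 to 10.02, and it passed no window contrast in EOM.

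Receptors and carriers formed the next group. Tfrc, the receptor that takes up iron on transferrin, read 8.18, 8.37 and 8.07 in EOM at day 0, 11.26, 11.53 and 10.95 at day 14, 10.74, 11.79 and 11.18 at day 21, and 9.35, 10.36 and 10.94 at day 45. The window was above every day 0 array and overlapped with day 45. In leg the window was higher than day 0 by 3.06 ± 0.29 (adjusted p = 2.1e-09), with means of 12.29 at day 14 and 11.78 at day 21 against 8.98 at day 0. It did not pass against day 45, with a leg mean of 11.64.

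Tfrc was also higher at day 28 than at day 7, by 2.1 ± 0.34 in EOM (adjusted p = 3.4e-05) and by 1.46 ± 0.34 in leg (adjusted p = 0.00182). Young red cells carry much of this receptor. The 9 measured genes of the erythroid list summed in EOM to 11665 to 13703 at day 0, 21807 to 48086 over the window and 14537 to 72868 at day 45. In leg they summed to 11605 to 57578 at day 0, 37399 to 53335 over the window and 34281 to 45003 at day 45. Of 8 tested genes of the list, 2 (Hbb and Hbb-b1, both beta globins) were higher in the EOM window than at day 0, 1 (Hbe1) was lower than at either end age, and 0 were higher than at day 45. In leg 0 were higher and 1 lower than at day 0 (Alas2, which starts haem synthesis in red cells), and 0 differed from day 45. Among all tested probe sets, 10.4% were higher and 17.8% lower than at day 0 in EOM, and 8.59% and 16.0% in leg. Lower than at day 45 in EOM were 2.1%. The part of red cell content in the Tfrc values was not tested.

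Slc6a9, a glycine transporter, had all window arrays (10.6 to 11.75) above the end arrays in EOM (9.15 to 10.47). Trhr, the receptor of thyrotropin-releasing hormone, had a window of 10.01 to 11.38 against end arrays of 7.92 to 10.58, and 3 of its 6 window arrays lay above all of them. Neither passed a window contrast in leg, where the day 45 mean of Trhr was the highest of its ages at 11.4. Il6st, the shared signal chain of the interleukin 6 receptors, was a leg member with a size of 0.74, and its day 45 arrays read 9.42, 9.23 and 6.64, the floor. In EOM neither of its window contrasts passed.

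Cdh22, a cadherin that joins cells, was a leg member in which day 0 was also high. It read 12.04, 11.38 and 12.72 at day 0, 13.26, 12.86 and 12.77 at day 14, 13.05, 12.84 and 12.23 at day 21, and 10.8, 9.69 and 10.37 at day 45 in leg. In EOM the window was lower than day 0 (-0.87 ± 0.32, adjusted p = 0.0369) and higher than day 45 by 1.34 ± 0.32 (adjusted p = 0.0107). The call against day 0 was lost in 8 of 43 alternatives (median scaling, no filter, a fit of these groups alone, and without EOM day 0 replicate 1 or 3, EOM day 14 replicate 1 or 2, or EOM day 21 replicate 3, -0.97 to -0.57). The call against day 45 was lost in 3, without EOM day 45 replicate 1 or 2 and in the fit of these groups alone (1.17 to 1.34).

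Metabolic enzymes and organelle proteins were members in both directions of choice. In leg, Pxmp2, a channel of the peroxisome membrane, read 10.51, 10.34 and 10.49 at day 0, 11.93, 12.19 and 11.37 at day 14, 12.15, 12.06 and 11.76 at day 21, and 10.72, 11.36 and 10.6 at day 45. The groups were apart, though by 0.01 between the lowest window array and the highest end array. In EOM the window was higher than day 0 by 2.6 ± 0.23 (adjusted p = 5.6e-10) while the window mean was 12.02 and the day 45 mean 12.02 ± 0.29 (SD, n = 3). In EOM it was also higher at day 28 than at day 7 by 1.11 ± 0.27 (adjusted p = 0.00351).

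Neu2, the cytosolic sialidase, read 8.93, 9.56 and 9.84 in leg at day 0, 10.93, 11.25 and 11.33 at day 14, 10.91, 10.98 and 11.43 at day 21, and 9.99, 10.46 and 10.31 at day 45, with no overlap. In EOM its window was higher than day 0 by 1.0 ± 0.22 (adjusted p = 0.000836), and the day 45 mean of 11.01 ± 0.5 was its highest. In leg it was higher at day 28 than at day 7 by 0.73 ± 0.26 (adjusted p = 0.0391), lost in 4 of 43 alternatives (without leg day 7 replicate 1 or 2 or leg day 28 replicate 1, and in a fit of these groups alone, 0.46 to 0.73).

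Hsd17b8, a short-chain dehydrogenase of mitochondria, had a window of 9.05 to 9.8 above end arrays of 7.69 to 8.84 in EOM. In leg its window was higher than day 0 by 1.45 ± 0.34 (adjusted p = 0.00198), lost without leg day 0 replicate 3 (1.0), an array at the floor. Gstk1, a glutathione transferase of mitochondria and peroxisomes, spread from 8.83 to 11.89 over its EOM window arrays and from 8.74 to 11.22 over the end arrays. A further probe set of Gstk1 had a size of -0.66 in EOM. Acacb, the acetyl-CoA carboxylase that restrains fatty acid oxidation, had the smallest size of the EOM members, with its highest mean at day 28 (10.19 ± 0.36). Neither Gstk1 nor Acacb passed a window contrast in leg.

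Decr1, a reductase needed to oxidise polyunsaturated fatty acids, was a leg member with arrays of 10.97, 11.31 and 11.13 at day 0, 11.71, 11.71 and 12.17 at day 14, 11.79, 11.94 and 12.39 at day 21, and 10.74, 10.47 and 11.74 at day 45. Replicate 3 of day 45 reached into the window. The further probe set of Decr1 had a size of 0.69, just under the rule. Nipsnap2, a mitochondrial protein, had a leg window of 10.04 to 10.96 with 1 day 45 array, at 10.14, inside it. Neither passed a window contrast in EOM. Of 21 other tested genes of fatty acid oxidation and uptake, 10 were higher and 2 lower in the leg window than at day 0. Against day 45, 0 were higher and 1 lower. The shares of all tested probe sets were 8.59% higher and 16.0% lower against day 0, and 7.37% and 7.6% against day 45.

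Ribosomal protein genes appeared among the EOM members as Rps29 of the small subunit and Rpl3 of the large one. Rpl3 read 12.55, 12.51 and 12.87 in EOM at day 0, 14.75, 14.1 and 14.37 at day 14, 14.23, 13.94 and 14.51 at day 21, and 13.62, 13.37 and 13.81 at day 45, with no overlap. In leg its window was higher than day 45 by 1.19 ± 0.26 (adjusted p = 0.00192), and against day 0 the difference was 0.58 ± 0.26 (adjusted p = 0.101). A further probe set of Rpl3 had a size of -0.01 in EOM.

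Rps29 read 10.93, 6.64 and 10.58 in EOM at day 0, 13.96, 12.37 and 13.19 at day 14, 13.88, 11.46 and 13.02 at day 21, and 6.64, 12.76 and 15.05 at day 45. The end arrays ran from the floor to above the whole window. Without EOM day 45 replicate 1 its size became -0.93. Its other probe set had a size of -2.41. Of 23 other tested ribosomal protein genes, 8 were higher in the EOM window than at day 0 and 3 higher than at day 45, where 10.4% and 2.44% of all tested probe sets were. In leg, over all 25, 3 and 8 were higher, where 8.59% and 7.37% of all were, and 0 were lower in either muscle.

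Nuclear proteins were members in each muscle. Nfix, a nuclear factor I protein that in the mouse drives the switch to fetal myoblast genes, read 10.92, 11.49 and 12.71 in leg at day 0, 13.52, 13.09 and 13.25 at day 14, 13.23, 13 and 13.23 at day 21, and 12.5, 12.41 and 10.46 at day 45. Groups were apart, and 1 of 2 further probe sets met the rule with a size of 1.55, the other having 0.64. In EOM neither window contrast passed, and at day 14 replicates 1 and 2 read 9.8 and 10.49 while replicate 3 read 13.16.

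Rara, a retinoic acid receptor, had EOM window arrays of 11.9 to 13.33 and end arrays of 10.81 to 13.16, and 2 further probe sets had sizes of -0.98 and -1.4. Pax4, known from pancreatic endocrine development, had an EOM window of 8.69 to 9.91 and end arrays of 7.23 to 9.1. In leg the Pax4 window was higher than day 0 by 1.8 ± 0.46 (adjusted p = 0.00437), lost without leg day 0 replicate 2 (1.28), and day 45 had its highest leg mean, 9.67. In leg Pax4 was higher at day 28 than at day 7 by 1.52 ± 0.54 (adjusted p = 0.0394), lost in 6 of 43 alternatives, 4 of them without leg day 7 replicate 2 or 3 or leg day 28 replicate 1 or 2 (1.22 to 1.54 over all 6). Further Pax4 probe sets had sizes of -0.45 and 0.23.

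Dhx36, a helicase that unwinds quadruplex nucleic acids, and Nup155, a protein of the nuclear pore, were leg members with overlapping arrays. The Dhx36 window ran from 9.61 to 11.12, against 8.46, 8.93 and 10.71 at day 0. The Nup155 window ran from 9.03 to 9.82, against 9.48, 6.85 and 9.6 at day 0, and without replicate 2 of day 0 its size was -0.16. Neither passed a window contrast in EOM.

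Sncg, gamma-synuclein, a small protein of neurons and fat cells, had the largest size of all members. Its leg arrays read 7.33, 7.49 and 7.0 at day 0, 7.07, 6.64 and 7.64 at day 7, 10.21, 10.81 and 9.57 at day 14, 8.79, 10.19 and 11.16 at day 21, 8.27, 8.31 and 8.67 at day 28, and 7.48, 7.16 and 8.04 at day 45. Every window array was above every array of the other 4 ages in leg. In EOM the window was higher than day 0 by 2.55 ± 0.56 (adjusted p = 0.000819). Its EOM day 45 arrays read 8.54, 8.63 and 11.21, and the difference from day 45 did not pass. Of 15 tested adipocyte genes, 4 were higher and 0 lower in the leg window than at day 0, and 0 were higher and 1 lower than at day 45. In EOM 8 were higher and 0 lower than at day 0, and 0 differed from day 45. The shares of all tested probe sets in leg were 8.59% higher and 16.0% lower against day 0, and 7.37% and 7.6% against day 45. In EOM they were 10.4% and 17.8% against day 0. The 16 measured genes of that list summed in leg to 35078 to 43241 at day 0, 50270 to 59070 over the window and 63793 to 69090 at day 45. In EOM they summed to 22083 to 28469 at day 0, 45566 to 59073 over the window and 46556 to 55174 at day 45. The part of fat cells in the Sncg values was not tested.

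Lcn2, a lipocalin that binds iron carriers of bacteria and is made by epithelia, took different courses in the muscles. In EOM it read 12.24, 12.31 and 12.11 at day 0, 9.62, 10.13 and 9.8 at day 14, 11.79, 9.43 and 12.45 at day 21, and 7.6, 7.83 and 6.64 at day 45. In leg it read 8.79, 8.6 and 9.49 at day 0, 10.13, 10.07 and 9.99 at day 14, 9.81, 9.04 and 9.35 at day 21, and 8.54, 7.55 and 8.03 at day 45, with 2 window arrays below the highest day 0 array. In EOM the window was lower than day 0 (-1.68 ± 0.5, adjusted p = 0.0106) and higher than day 45 by 3.18 ± 0.5 (adjusted p = 0.000188).

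The EOM value of Lcn2 was lower at day 28 than at day 7 (-1.64 ± 0.58, adjusted p = 0.0472), a call lost in 28 of 43 alternatives, 23 of them with a single array left out (-1.64 to -1.31). The 13 measured genes of the epithelium and gland list summed in EOM to 32500 to 46164 at day 0, 12104 to 25360 at day 7, 3745 to 5178 at day 14, 5724 to 8968 at day 21, 3880 to 4251 at day 28 and 3866 to 7880 at day 45. Lcn2 is itself on this list and is part of the sums. Of the 13, 0 were higher and 11, Lcn2 among them, lower in the EOM window than at day 0. The shares of all tested probe sets were 10.4% higher and 17.8% lower. In leg the sums were 6024 to 11970 at day 0, 4885 to 7885 over the window and 6794 to 9179 at day 45. Krt5, a keratin of basal epithelium, had EOM means of 12.76, 10.99, 7.45, 7.2, 7.84 and 8.65 over the ages. The leukocyte list summed in EOM to 29815 to 38048 at day 14 and 31372 to 94141 at day 21. It summed to 26476 to 30824 at day 0 and 40328 to 48544 at day 45. The parts of epithelium and of leukocytes in the EOM values of Lcn2 were not tested.

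Paqr3, a Golgi protein that holds back Raf kinase, had leg arrays of 9.66 to 10.49 in the window and 8.5 to 10.44 at the ends. Natd1 had EOM arrays of 11.05 to 12 in the window and 9.79 to 11.83 at the ends. Neither passed a window contrast in the other muscle.

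Certain arrays recurred as high or low across members, in 2 groups of genes picked after their values were seen. In EOM at day 45, replicate 3 was above replicates 1 and 2 for Flot1, Rps29, Actc1, Cabin1 and Rara. In leg at day 0, replicate 1 was the highest of the 3 for the same 5 genes, with 13.69 for Flot1, 14.0 for Rps29, 13.79 for Actc1, 12.16 for Cabin1 and 12.95 for Rara. A second group behaved otherwise. For Nfix, Igfbp5, Nipsnap2, Dhx36 and Paqr3, EOM day 14 replicates 1 and 2 lay below replicate 3, and for all of these but Nipsnap2 leg day 0 replicate 3 was the highest of its group. In leg at day 45, replicate 3 was the lowest of its group for all 5 of them. Without that array 19 genes met the rule in leg, 13 of the 18 leg members among them. The labels name no batch, and the part of array quality in these members was not tested.

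Each transient was tested in the muscle other than the one that chose it. Alox15, Cpa1 and Mbp were chosen in both muscles, so for them the tested arrays had also taken part in a choice. Of the members that passed both contrasts below, only Col15a1 was not chosen in the muscle tested. Same-numbered arrays of EOM and leg co-varied at days 14 and 21 (correlations of 0.101 to 0.369), so the muscles may not be fully separate. Of the 22 EOM members, 3 (Alox15, Col15a1 and Cpa1) passed in leg against both day 0 and day 45, where 0.39% of the 6672 tested probe sets did. Against day 0 alone 9 were higher in leg (background 8.59%) and 1 lower, Thbs4. Against day 45 alone 5 were higher (background 7.37%) and 0 lower. The median differences of the 22 in leg were 0.62 against day 0 and 0.5 against day 45, beside -0.14 and -0.14 over all tested probe sets.

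Of the 18 leg members, 2 (Alox15 and Cpa1) passed both contrasts in EOM, where 0.165% of tested probe sets did, and 1 passed with no filter on dim probe sets or in a fit of only the groups compared. Against day 0 alone 7 were higher in EOM (background 10.4%) and 2 lower, Cdh22 and Lcn2. Against day 45 alone 4 were higher (Alox15, Cdh22, Cpa1 and Lcn2, background 2.44%). The medians were 0.25 and 0.19, beside -0.17 and -0.1 over all tested probe sets. Alox15 and Cpa1 are also among the EOM members that passed both contrasts in leg, so the 2 counts overlap. Outside the members, Gadd45a, a stress response gene on the list of immediate early genes, was the only list gene to pass both contrasts without being a member, in leg (0.67 ± 0.18, adjusted p = 0.00559, and 0.93 ± 0.18, adjusted p = 0.000547).

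**Figure D4:**
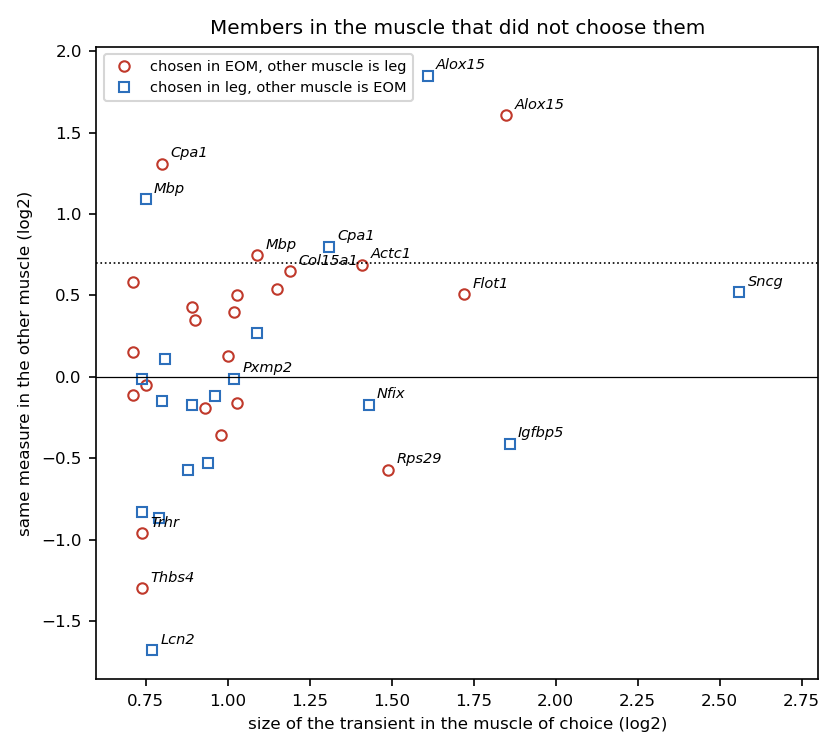
Size of each transient in the muscle that chose the gene (horizontal) against the same measure in the other muscle (vertical), both in log2 units. Circles are EOM members read in leg and squares leg members read in EOM, and the dotted line marks the rule's 0.7. Alox15, Cpa1 and Mbp lie above that line from both sides, Thbs4 and Lcn2 lie lowest, and the median in the other muscle was 0.38 for EOM members and -0.14 for leg members.

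Within the window few differences were detectable. Between day 21 and day 14, 0 of 22 EOM members differed in EOM (3 had an unadjusted p under 0.05, and 0.6% of tested probe sets passed, 0.45% higher and 0.15% lower) and 0 of 18 leg members in leg (1 under 0.05 unadjusted, and 0.659% passed, 0.18% higher and 0.48% lower). In tests added after the data were seen, 1 of 22 EOM members differed in leg, which was Mybph, and 0 of 18 leg members in EOM (5 under 0.05 unadjusted). The difference between the muscles passed for 0 of 37 (3 under 0.05 unadjusted, and 0.015% of probe sets passed). With 3 arrays in a group, the median standard error was 0.34 for day 21 against day 14 within a muscle and 0.48 for the difference between the muscles, which limits what could be detected.

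Between days 28 and 7, which the rule did not use, 3 of 22 EOM members were higher at day 28 in EOM (Fmod, Mybph and Tfrc) and 0 lower, where 6.73% of tested probe sets were higher and 10.7% lower. With a floor of 200 or after quantile normalization 5 differed, 4 higher and 1 lower. Of the 18 leg members, 1 was higher in leg, Neu2, and 1 lower, Mbp, with 7.93% of probe sets higher and 13.8% lower. In added tests, 7 of 22 EOM members differed in leg, 4 of them higher (Mybph, Orai1, Pax4 and Tfrc) and 3 lower (Fmod, Mbp and Thbs4). Of leg members, 2 of 18 differed in EOM (Pxmp2 higher and Lcn2 lower, and 1 with a floor of 50 or with no filter), where 17.5% of probe sets passed either way, and 21.8% did in leg. The difference between the muscles in this change passed for 2 of 37, Fmod and Thbs4, where 1.59% of probe sets passed, and for 1 with median scaling or with no filter.

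Between the muscles, 3 of 37 members differed at day 7 (Mbp higher in EOM, Fmod and Thbs4 lower), where 4.95% of tested probe sets did (3.31% higher and 1.63% lower). The replicate number was also taken as a block, a pairing that no label gives and that only correlations of 0.131 to 0.295 at day 7 point to. With this block, Alox15 was also higher in EOM at day 7 (1.14 ± 0.3, adjusted p = 0.0278 with the block and 0.147 without it, with arrays of 13, 12.92 and 13.03 in EOM and 11.55, 11.28 and 12.68 in leg). At day 28, 2 of 37 differed, Mbp higher and Mybph lower in EOM, where 11.8% did (7.64% higher and 4.18% lower), and 4 differed in a fit of only the groups compared, 2 higher and 2 lower.

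The rule's 0.7 fell in a crowded part of the range. Just inside it in EOM lay Rpl3 (0.713), Rara (0.713) and Acacb (0.706), and just outside lay Entpd2 (0.684), Mecr (0.674) and Dlk1 (0.654). In leg, Mbp (0.752), Il6st (0.74) and Nup155 (0.74) lay just inside, and Kalrn (0.697), Mxd4 (0.693) and Actc1 (0.692) just outside. Of the members, 16 had further probe sets, which gave 22 readings in the muscle of choice, of which 4 met the rule and 11 had a size above 0.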

How the data were processed

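Affymetrix rat arrays measured total RNA of EOM and leg muscle. The deposited intensity values are on a linear scale, 1 per probe set and array, and trimmed means of the arrays lie between 1499.4 and 1501.1, so the values were already scaled when deposited. Which program made a value from its probes is not stated in the labels. The deposited scaling was kept, and intensity was floored at 100 (log2 6.64) and turned to log2.

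The 59 control probe sets were left out. A 2016 platform annotation gave 7006 probe sets 1 symbol, 308 several and 1426 none. Probe sets above an intensity of 320.4, the 40th percentile, on 3 or more of 36 arrays were tested, which left 6672. A model of 12 group means was fitted to the 36 arrays, using limma 3.58.1 under R 4.3.3 (trended prior, 24 residual and 5.84 prior degrees of freedom). Adjusted p is Benjamini-Hochberg over the 6672, with a threshold of 0.05. The standard error pools the spread of 12 groups. The fit was tested on simulated data. The other steps used python 3.11.15, pandas 2.3.3, numpy 2.4.6 and matplotlib 3.10.9.

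No window contrast is given as a test for a gene in the only muscle that chose it, and list counts leave out members chosen in the muscle counted. Alox15, Cpa1 and Mbp, chosen in both, were tested in each muscle for their choice in the other. The arrays of each such test also chose the gene in that muscle, so picking out these genes was not independent of it. The members and the 25 gene lists were chosen with earlier results of these data known. Tests of day 21 against 14 and day 28 against 7 in the other muscle, and of differences between muscles, were added after the data were seen. Genes were named by a rule on size, on past-threshold differences and on spread, and the remaining members are named to account for all 37. Per list, up to 3 non-members that passed both window contrasts were to be named, which gave Gadd45a. Des, Ckm, Cpa3, Cd74, Hbb, Hbb-b1, Hbe1, Alas2, Krt5, Ngfr, Gap43, Mag, Sox10, Cnp, Pmp22, Postn and Myog were added after their values were seen. Alternatives were floors of 50 and 200, median scaling, quantile normalization, no filter, only the groups compared, a replicate block and each array left out.

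EOM and leg arrays share replicate numbers. Deviations from group means of same-numbered arrays correlated at 0.168, 0.131 and 0.295 at day 7, 0.116, 0.105 and 0.164 at day 14 and 0.101, 0.153 and 0.369 at day 21, all over 0.1, so the numbers may pair these arrays, although no label says so. At day 28 they correlated at 0.104, -0.01 and 0.255, and at days 0 and 45 at -0.095 to 0.101, so not all over 0.1. Arrays of unlike number were not compared, so these values neither show nor exclude a pairing at any age.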

Additional observations from a re-analysis of the deposited data

Results flagged for a closer look

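For 2 members the change between days 7 and 28 differed between the muscles by a test of that difference. Fmod was higher at day 28 than at day 7 in EOM and lower in leg, and the difference of the changes was 2.34 ± 0.46 (adjusted p = 0.00404). Thbs4 had means of 11.28 at day 28 and 11.45 at day 7 in EOM, against 11.17 and 12.8 in leg, and the difference of the changes was 1.45 ± 0.38 (adjusted p = 0.04). The Thbs4 call was lost in 10 of 43 alternatives: median scaling, no filter on dim probe sets, and the omission of any leg day 7 array, leg day 28 replicate 2, EOM day 7 replicate 1 or 2, or EOM day 28 replicate 2 or 3. Over these 10 its value was 1.22 to 1.48 with adjusted p of 0.0595 to 0.121.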

How the results depend on the processing

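The set itself moved with the processing. Scaling arrays to the same median gave 71 members (34 in EOM, 46 in leg, all 37 among them) and raised the median of all tested probe sets by 0.24 and 0.14 in the EOM window contrasts and by 0.19 and 0.16 in leg. Quantile normalization gave 59 (median shifts of 0.08 to 0.17), with 36 of the 37 among them. A threshold of 1.0 left 16, and the demand that all 6 window arrays exceed all 6 of days 0 and 45 left 13. Other settings gave 35 to 49 members. With medians in place of means 46 met the rule, 26 of the 37 among them. With 1 array left out the number ran from 31 (without EOM day 45 replicate 2) to 48 (without EOM day 45 replicate 3).

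With single arrays left out, the Actc1 size in EOM ran from -0.02 (without EOM day 0 replicate 2) to 2.58, the Rps29 size in EOM from -0.93 (without EOM day 45 replicate 1) to 3.28, the Cabin1 size in EOM from -0.34 (without EOM day 45 replicate 2) to 1.59 and the Nup155 size in leg from -0.16 (without leg day 0 replicate 2) to 1.22. With medians Nup155 had -0.14. Over single genes and alternatives, 2669 values kept their call or moved within the spread, 126 were no longer past the threshold, 30 moved beyond the spread and 5 reversed.

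Leg members passing both window contrasts in EOM numbered 1 with no filter and 1 in a fit of only the groups compared. Day 28 against day 7 in EOM called 5 EOM members at a floor of 200 and 5 after quantile normalization, and for leg members 1 at a floor of 50, 1 with no filter and 4 with a replicate block. EOM against leg at day 28 called 4 in a fit of only the groups compared. Day 21 against day 14 in leg called 0 EOM members in that fit. The difference between muscles from day 7 to 28 called 1 with median scaling and 1 with no filter. The causes were not tested.

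With the replicate block, EOM against leg called 5 members at day 28 (Alox15, Decr1 and Paqr3 added) and 4 at day 7, and its counts elsewhere lay within 1.5 times the main ones, apart from the 4 above.

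With single arrays left out, the counts ran from 2 to 4 (window, EOM members in leg), 1 to 3 (window, leg members in EOM, with 3 found without EOM day 45 replicate 3), 0 to 1 (day 21 against 14, EOM members in EOM), 0 to 0 (leg members in leg), 0 to 1 (EOM members in leg) and 0 to 2 (leg members in EOM). For day 28 against 7 they ran from 2 to 5 (EOM members in EOM), 1 to 3 (leg members in leg), 5 to 8 (EOM members in leg) and 1 to 3 (leg members in EOM). EOM against leg ran from 2 to 4 at day 7 and 2 to 3 at day 28. The differences between muscles ran from 0 to 0 (day 21 against 14) and 1 to 3 (day 28 against 7). The number of arrays, 3 in a group, limits the precision.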
